A study of Rattus norvegicus with 12 samples.

Results

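The 35 genes described here mark the endothelium of the lung, the cell layer that lines its arteries, capillaries, veins and lymphatics. They were listed by name as genes known to mark this cell type, with earlier results of these data known. All 35 were found among the 30045 gene symbols counted, and all 35 were among the 15019 genes with enough counts to test. The samples were pieces of lung from 12 male Fischer 344 rats (F344/DuCrl), bought at 3 months of age and kept 3 to a cage. The air group of 6 rats breathed air in whole-body inhalation chambers. The CNC group of 6 rats breathed crystalline nanocellulose (CNC), short rods of crystalline plant cellulose, in chambers of the same kind (20 mg/m3, with daily sessions of 6 hours on 5 days of each week, and 14 exposure days in all). Lungs were taken 1 day after the last exposure, and RNA with poly(A) tails was sequenced, so each value is an average over all cells in the piece. Library totals of 8693259 to 16603697 counts overlapped between air and CNC (exact permutation test, 2-sided, p = 0.745). Levels are given as CPM, the count relative to the library's size after scaling by the trimmed mean of M values (TMM). CPM is not corrected for transcript length, so it compares rats for 1 gene and not genes with each other.

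Endothelial cells are held in their state by transcription factors of the ETS family such as ERG and FLI1, which keep genes for junctions and growth factor receptors active. Signals from VEGF, angiopoietins and BMP9 reach them through receptors that few other cells carry, and blood flow acts on them through KLF2 and KLF4. In the alveolus the capillary net holds general capillary cells and aerocytes. General capillary cells act as progenitors and hold lipoprotein lipase at their surface through GPIHBP1, while aerocytes are broad, thin cells that lie against the air space and carry carbonic anhydrase 4.

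Most endothelial genes were lower in the lungs of CNC rats by small amounts. Of the 35, 27 were called lower, 0 were called higher and 8 passed in neither direction (edgeR quasi-likelihood test, Benjamini-Hochberg adjusted p below 0.05 over all tested genes). Over all 15019 tested genes 11.4% were called lower and 13.2% higher. Below, a gene is counted as fallen or risen only where it was called. The median log2 fold change of the 35 was -0.26, beside -0.0026 over all tested genes, and 34 of the 35 had a negative value. Among the 27 called genes the fall ran from 1.10-fold (Ptprb) to 1.36-fold (Ldb2), with a median of 1.20-fold. For 13 of the 35 every CNC rat lay below every air rat, against 4.7% of all tested genes. In a lung piece, fewer endothelial cells, less RNA of these genes per cell and more RNA from other cells cannot be told apart. Leaving out air replicates 4 and 5, the libraries with the most heart muscle RNA, left 27 calls, against 11.5% of all genes lower in that fit. A separate fit without CNC replicates 3 and 6 also left 27, against 11.1% of all genes. Those replicates had the lowest type 2 alveolar and macrophage marker sums of the CNC libraries. With a score of circadian clock genes as a covariate 8 of the 35 were called lower (Flt4, Tie1, Cdh5, Erg, Ldb2, Emcn, Cd34 and Mmrn2), against 2.8% of all genes in that fit. In that fit 20 of the 27 lost the call, and the values of single genes moved both ways. Of the called genes, log2 fold changes moved toward 0 by over 1.5 times for Flt1 (-0.22 to 0.027), Ptprb (-0.14 to -0.003), Vwf (-0.21 to -0.093), Tek (-0.30 to -0.14), Fli1 (-0.29 to -0.18) and Kdr (-0.22 to -0.15). They moved away from 0 by as much for Emcn (-0.22 to -0.50), Flt4 (-0.26 to -0.49), Rasip1 (-0.20 to -0.37), Tie1 (-0.22 to -0.34) and Erg (-0.15 to -0.25). The standard error of the members grew by a median of 1.94 times and the median log2 fold change was -0.31. The clock score ran from -2.39 to 0.55 in air and from 0.20 to 2.37 in CNC (2-sided exact permutation test, p = 0.00433), and its part in these results was not tested beyond that fit.

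**Figure D1:**
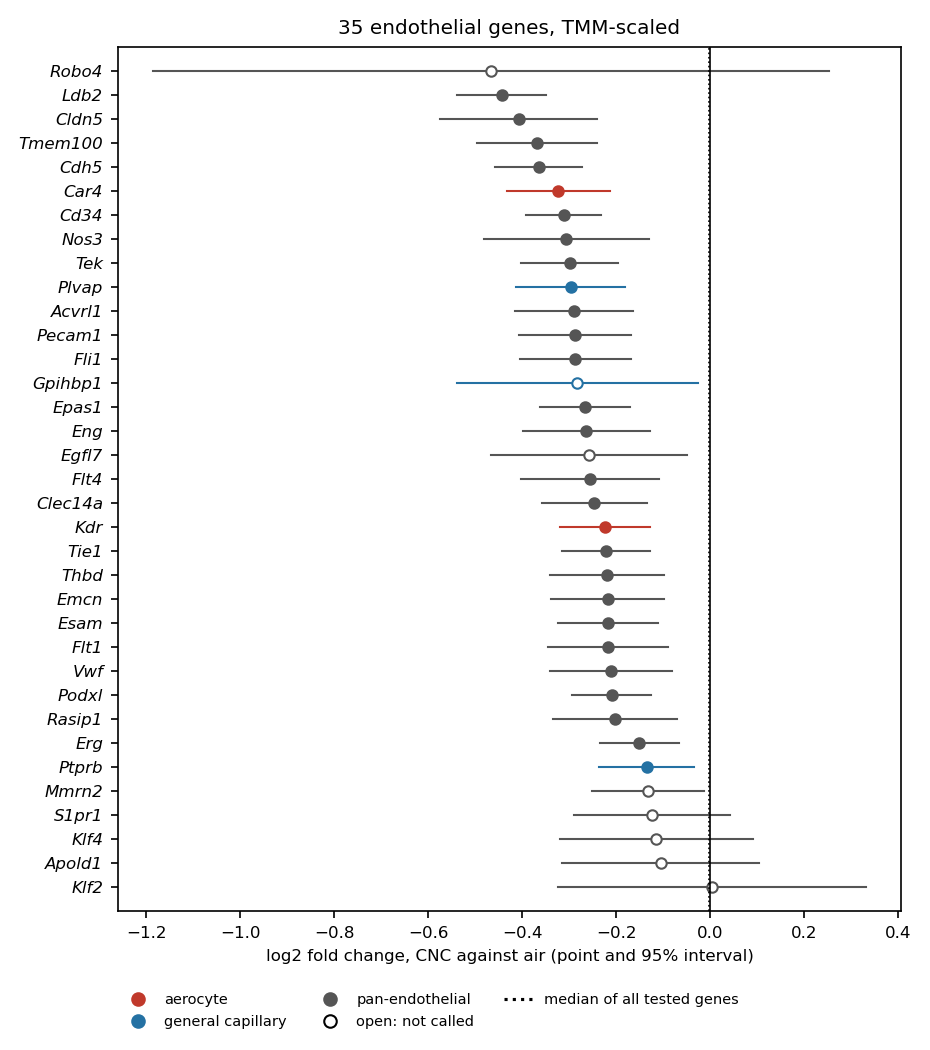
Log2 fold change of each of the 35 endothelial genes, CNC against air, with its 95% interval; filled points passed the test, colours give the capillary class and the dotted line is the median of all tested genes. All but Klf2 lie left of 0, Ldb2 being the lowest of the called genes at -0.44.

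Of 10 receptors and receptor-linked proteins 8 fell, and these were the 8 of the VEGF, angiopoietin and BMP9 pathways. Kdr, the main signalling receptor for VEGF-A, ran from 829.7 to 954 CPM in the air rats (median 886) and 719 to 834 in the CNC rats (median 743). In all, 5 of the 6 CNC rats lay below every air rat for Kdr, which fell 1.17-fold (adjusted p = 0.00178). Flt1, a VEGF receptor that mostly acts as a trap for the ligand, ran from 257 to 342 CPM in the air rats (median 310.4) and 240.1 to 271 in the CNC rats (median 266). It fell 1.16-fold (adjusted p = 0.0152), although 5 of the 6 CNC values lay inside the range of the air rats, and with the clock covariate its log2 fold change was 0.027 (adjusted p = 0.908). Flt4, the VEGF-C receptor of lymphatic and some capillary endothelium, was at 52.4 ± 4.97 CPM in air and 44.1 ± 4.11 in CNC (mean ± SD, 6 rats each), a fall of 1.19-fold (adjusted p = 0.0132). With air replicates 4 and 5 both left out Flt4 no longer passed (adjusted p = 0.0508).

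The angiopoietin receptor Tek ran from 652 to 818 CPM in the air rats (median 755) and 581 to 635 in the CNC rats (median 609). No CNC rat reached the lowest air rat, and the fall was 1.23-fold (adjusted p = 3.11e-04), a call lost with the clock covariate (adjusted p = 0.352). Tie1, the orphan partner of Tek, fell 1.17-fold, from 381 ± 21.1 to 326 ± 17.8 CPM (adjusted p = 0.00168), with 5 of 6 CNC rats below all air rats. Ptprb, the phosphatase that damps Tek signalling, fell least of the called genes, 1.10-fold (adjusted p = 0.0495). Its levels overlapped widely, at 1155 to 1432 CPM in air and 1146 to 1232 in CNC, and the call was lost when any of air replicates 1, 2, 3 and 6 or any CNC replicate was left out (adjusted p from 0.0556 to 0.116). Eng, the co-receptor for BMP9, ran from 1082 to 1358 CPM in the air rats (median 1120.2) and 879 to 1081 in the CNC rats (median 992), with no overlap between the groups, and fell 1.20-fold (adjusted p = 0.00668). Acvrl1 (ALK1), the BMP9 receptor kinase, fell 1.22-fold, from 987 ± 67.7 to 807 ± 71.1 CPM (adjusted p = 0.00199).

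S1pr1 and Robo4 did not pass the test. S1pr1, the receptor through which sphingosine-1-phosphate tightens the barrier, was at 217 to 282 CPM in air and 184 to 260.3 in CNC, with a log2 fold change of -0.12 ± 0.078 (SE) and an interval from -0.29 to 0.043 (adjusted p = 0.283). Robo4, a vascular guidance receptor, was counted at only 4 to 84 reads per library. Its air rats spread from 0.464 to 5.04 CPM around CNC rats at 1.46 to 2.31, and the interval of its log2 fold change, -1.19 to 0.25, covers both directions. The coefficient of variation of Robo4 was 62.4% in air and 16.3% in CNC.

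The ligands and partners of these receptors changed in both directions. In a list of VEGF and angiopoietin ligands and co-receptors 6 of 10 tested genes fell and 2 rose (median log2 fold change -0.21), and 1 was lower with the clock covariate. Vegfa, which type 1 alveolar cells supply to aerocytes, was at 1492 to 1768 CPM in air and 1251 to 1476 in CNC. The groups did not overlap, and Vegfa fell 1.19-fold (adjusted p = 0.0019). Vegfc, the ligand of Flt4, fell 1.32-fold (adjusted p = 3.36e-04), the semaphorin receptor Plxnd1 1.17-fold and the Tek agonist Angpt1 1.17-fold (adjusted p = 7.85e-04 and 0.0026). The 2 that rose were Vegfb, a ligand of Flt1, at 1.14-fold, and the co-receptor Nrp2, at 1.12-fold (adjusted p = 0.0308 and 0.0323). In the BMP9 and ALK1 list 5 of 11 tested genes fell and 1 rose, with a median of -0.10. With the clock covariate 0 of the 11 were lower, and the median was -0.03. Id3 and Smad7, both targets of this pathway, fell 1.24-fold and 1.19-fold (adjusted p = 0.0069 and 0.00912), and the signal carrier Smad5 fell 1.09-fold. Id1, the target used most often as a readout, had a log2 fold change of -0.016 ± 0.11 (SE), and Tgfbr2, the TGF-beta receptor, was the gene that rose, 1.11-fold with no overlap between the groups (adjusted p = 0.00253). Id1 was named after its values were seen.

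All 5 junction and adhesion genes fell. Cdh5 encodes VE-cadherin, the adhesive core of endothelial junctions. Its air rats ran from 723 to 844 CPM (median 743) and its CNC rats from 559.6 to 625 (median 593), so the highest CNC rat stayed well under the lowest air rat. The Cdh5 log2 fold change was -0.37 ± 0.044 (SE), a fall of 1.29-fold (adjusted p = 2.5e-05), and the call held with the clock covariate (log2 fold change -0.37, adjusted p = 0.0202). Cldn5, the tight junction claudin of endothelium, ran from 333 to 439.6 CPM in the air rats (median 398) and 252 to 349 in the CNC rats (median 303). Cldn5 had the second largest fall of the called genes, 1.33-fold (adjusted p = 0.00129), with CNC replicate 4 the only one inside the air range. Pecam1 (CD31), the adhesion molecule most used to stain vessels, fell 1.22-fold, from 341 ± 28.4 to 279 ± 19.5 CPM (adjusted p = 0.00139). Esam, an adhesion molecule of the tight junction, fell 1.16-fold (adjusted p = 0.00476) and Rasip1, a RAS-family effector needed for vessel lumens, 1.15-fold (adjusted p = 0.0244). The Rasip1 call was lost without air replicate 1 or 2 or without CNC replicate 1, 2 or 5 (adjusted p from 0.0509 to 0.0666).

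**Figure D2:**
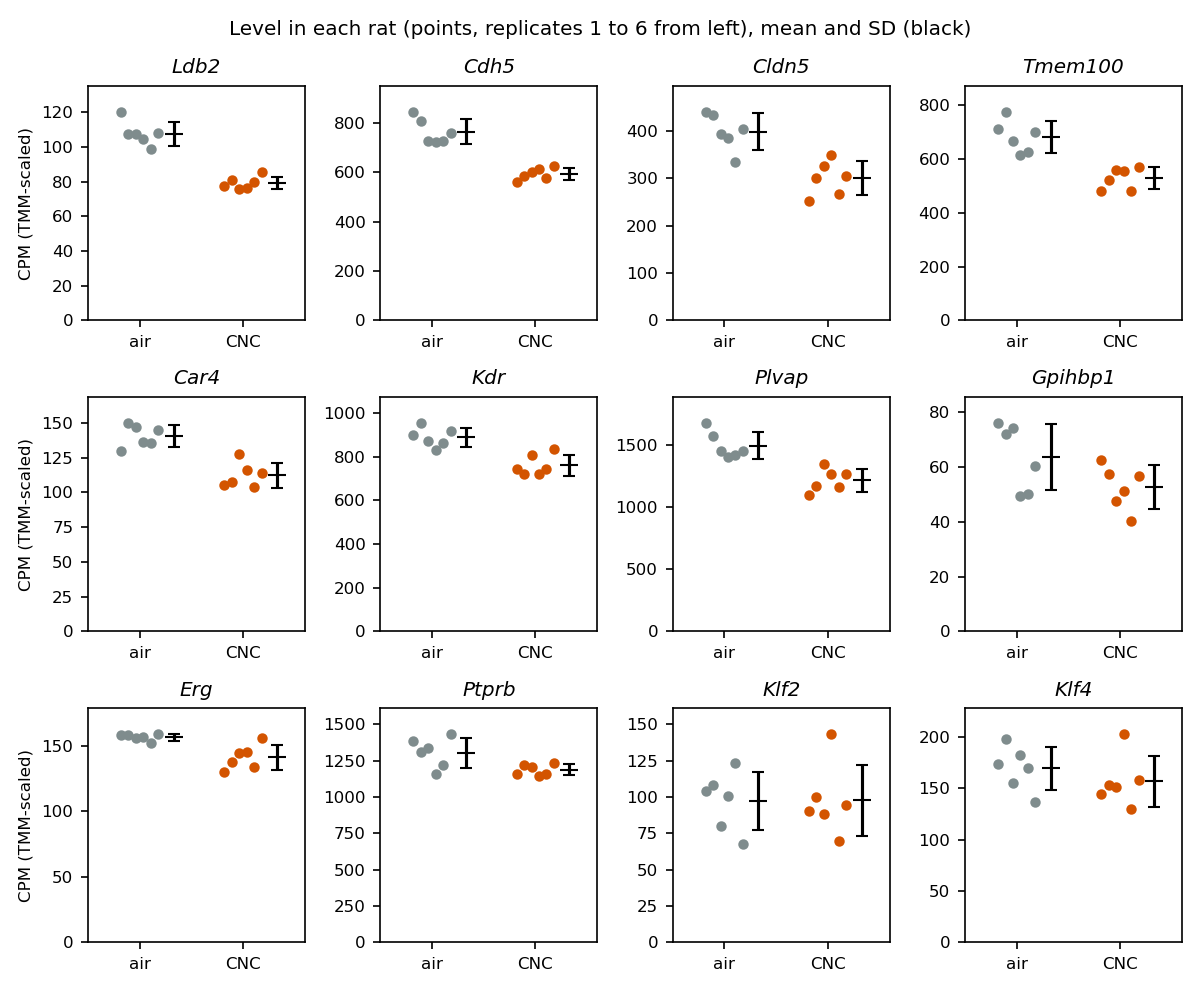
TMM-scaled CPM of 12 of the 35 genes in each rat, 6 air (grey) and 6 CNC (orange), with mean and SD in black and each vertical axis starting at 0. Ldb2, Cdh5, Tmem100, Car4 and Plvap show no overlap between the groups, whereas Klf2 and Klf4 overlap throughout.

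Transcription factors of endothelial identity fell, while the flow-responsive factors did not pass. Of the 6 factors and cofactors 4 fell. Ldb2, an adaptor that links LIM-domain and GATA factors, gave the smallest adjusted p of the 35. Its levels ran from 99.01 to 120.1 CPM in the air rats (median 107) and 75.6 to 85.3 in the CNC rats (median 78.7), and the fall was 1.36-fold (log2 fold change -0.44 ± 0.044 SE, adjusted p = 4.92e-06). The ETS factor Fli1 was at 84.1 to 108 CPM in air and 73.2 to 80.4 in CNC, without overlap, and fell 1.22-fold (adjusted p = 0.00136). Erg, the ETS factor most restricted to endothelium, varied little in air, at 152 to 159 CPM, and ran from 129.8 to 156 in CNC. Erg fell 1.11-fold (adjusted p = 0.0111). Epas1, which encodes the oxygen-regulated factor HIF-2 alpha and is also made by alveolar epithelium, fell 1.20-fold, from 3346 ± 213 to 2781 ± 121 CPM (adjusted p = 4.79e-04), with every CNC rat below every air rat.

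Klf2 did not pass the test. The air rats held 104, 108, 80.1, 101, 123 and 67.6 CPM and the CNC rats 90.1, 100.2, 88.5, 143, 69.7 and 94.5. Both groups spread about as widely, CNC replicate 4 being the highest and air replicate 6 the lowest of all 12. The Klf2 log2 fold change was 0.0027 ± 0.15 (SE) with an interval from -0.32 to 0.33 (adjusted p = 0.994), which still holds the median change of the other genes. Klf4 was at 137 to 198 CPM in air and 130.4 to 203 in CNC, again highest in CNC replicate 4, with a log2 fold change of -0.12 ± 0.10 (SE, adjusted p = 0.432). Of 10 tested genes that act upstream of both factors 4 fell and 0 rose: the kinase Map3k3 1.10-fold, the receptor Heg1 1.12-fold and the factors Mef2a 1.07-fold and Mef2d 1.07-fold (adjusted p from 0.0048 to 0.0498). Of these 10, 0 were lower with the clock covariate and 2 without air replicates 4 and 5. Among 12 further endothelial transcription factors 10 fell and 0 rose (median -0.25 on the log2 scale). The largest fall there was that of Sox17, an arterial factor, from 96.7 ± 9.26 to 66.2 ± 7.27 CPM, or 1.46-fold (adjusted p = 7.41e-05). Gata2 fell 1.36-fold, and the ETS factors Ets1 and Elk3 fell 1.20-fold and 1.17-fold (adjusted p from 2.99e-05 to 6.62e-04). With the clock covariate 6 of the 12 were lower.

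The promoters of the 35 genes were searched for a short motif around GGAA, the core letters that ETS factors such as Erg and Fli1 are known to bind. RefSeq promoters of the GRCr8 build (not the build of the counts) were found for 21 of the 35 genes, and the 250 bases before the start were read on both strands. The motif CNGGAAG, in which N is any base, was in 9 of 21 (42.9%), and in 25.9% of all 33469 promoters of that length. The KLF-type motif CCACNCCC was in 6 (28.6%, 13.6% of all), the GATA-type AGATAA in 2 (9.52%, 10.3% of all) and AACAGGAA, a FOX:ETS type that can overlap the first, in 1 (4.76%, 2.14% of all). These are matches of letters, with no test and no measure of binding. In the stretches below N is A for Erg, Plvap and Emcn, and T or G for Tie1, Epas1 and Flt4. Matches were not ranked by that base, so they need not be sites that ETS factors prefer. Of the 9 promoters with the motif CNGGAAG 6 belong to genes called lower and the others to Robo4, Egfl7 and Apold1, while 15 of the 21 promoters in all belong to genes called lower. The stretches around the match are given for those 6, to show where the letters stand, read 5′ to 3′ along the gene with the motif (or its reverse complement) in capitals:
Tie1 (GRCr8 chr5:137305113-137305179, minus strand): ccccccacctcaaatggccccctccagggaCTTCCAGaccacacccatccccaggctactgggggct
Erg (GRCr8 chr11:48251611-48251677, minus strand): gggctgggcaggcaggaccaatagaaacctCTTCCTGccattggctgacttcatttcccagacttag
Plvap (GRCr8 chr16:18231342-18231408, minus strand): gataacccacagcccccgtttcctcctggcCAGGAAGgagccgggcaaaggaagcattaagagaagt
Epas1 (GRCr8 chr6:13624730-13624777, minus strand): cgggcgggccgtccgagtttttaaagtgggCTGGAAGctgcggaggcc
Emcn (GRCr8 chr2:228564289-228564332, plus strand): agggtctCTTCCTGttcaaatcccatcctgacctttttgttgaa
Flt4 (GRCr8 chr10:34414584-34414675, plus strand): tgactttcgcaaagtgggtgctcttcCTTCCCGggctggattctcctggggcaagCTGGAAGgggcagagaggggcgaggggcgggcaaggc
The match begins 168, 81, 99, 18 and 243 bases before the start for Tie1, Erg, Plvap, Epas1 and Emcn, and Flt4 has 2, at 224 and 195.

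Genes of both alveolar capillary cell types fell. The aerocyte members Car4 and Kdr both fell, with log2 fold changes of -0.32 and -0.22. Of the general capillary members Plvap (-0.30) and Ptprb (-0.14) fell and Gpihbp1 (-0.28) did not pass. The other 30 members had a median of -0.25, and 23 of them fell. Car4, the carbonic anhydrase on the surface of aerocytes, ran from 129.8 to 149.8 CPM in the air rats (median 141) and 104 to 127 in the CNC rats (median 111). Every CNC rat lay below every air rat, and Car4 fell 1.25-fold (adjusted p = 2.88e-04). Plvap, which forms the diaphragms of endothelial caveolae and fenestrae, ran from 1402 to 1674 CPM in the air rats (median 1449.9) and 1095 to 1345 in the CNC rats (median 1215), likewise without overlap, and fell 1.23-fold (adjusted p = 9.45e-04). Gpihbp1, the anchor of lipoprotein lipase, was at 76.1, 72.3, 74.2, 49.6, 50.3 and 60.4 CPM in the air rats and 62.8, 57.5, 47.8, 51.3, 40.4 and 56.7 in the CNC rats. Air replicates 4 and 5 were as low as the CNC rats, and these are the libraries with the most heart muscle RNA. Air replicate 6 also lay inside the CNC range. Gpihbp1 had a log2 fold change of -0.28 ± 0.12 (SE, adjusted p = 0.105). Without air replicates 4 and 5 it was -0.44 (adjusted p = 0.00579), and without air replicate 4 alone -0.35 (adjusted p = 0.036). With a score of heart muscle genes as a covariate it was -0.34 (adjusted p = 0.0251), and with the clock covariate 0.084 (adjusted p = 0.871).

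The difference between aerocyte and general capillary members was then taken within each rat, for the 6 pairs of 1 gene from each class. The log2 level of Car4 minus that of Plvap was -3.41 ± 0.14 in air and -3.43 ± 0.04 in CNC (mean ± SD, 6 rats each), a shift of -0.028 ± 0.06 (SE; 2-sided exact permutation test, p = 0.736). The largest shift was that of Car4 against Ptprb, -0.19 ± 0.067 (SE; exact permutation p = 0.0216, 0.13 adjusted over the 6 pairs). No pair passed after adjustment (adjusted p from 0.13 to 0.766), and a p that misses the threshold does not show that the classes moved alike. Outside the 35 genes, 5 of 6 tested general capillary genes fell and 0 rose. These included the apelin receptor Aplnr, from 278 ± 26.5 to 206 ± 9.88 CPM, the serotonin transporter Slc6a4, 1.37-fold, the C-type lectin family receptor Cd93, 1.32-fold, and Kit, 1.12-fold (adjusted p from 4.75e-05 to 0.00711). With the clock covariate 2 of the 6 were lower. Of 8 tested aerocyte genes 6 fell and 2 rose (median log2 fold change -0.23), while 3 were lower with the clock covariate (median -0.12). The endothelin receptor Ednrb fell 1.22-fold, the scaffold protein Prx 1.20-fold and the ligand Apln 1.20-fold (adjusted p from 4.17e-05 to 0.0013). Fibin, named after its values were seen, had the largest fall of the list, 1.83-fold (adjusted p = 0.00641). Its levels overlapped, at 25.5 to 60.1 CPM in air and 16.5 to 35.6 in CNC. Chst1, a sulfotransferase, rose 1.86-fold, from 24.1 to 36.2 CPM in air to 50.03 to 64.98 in CNC, with no overlap (adjusted p = 3e-06). Rprml, the other that rose, was low, at 4.39 ± 0.381 CPM in air and 6.92 ± 1.62 in CNC (adjusted p = 0.00393), and was named after its values were seen. Of 5 tested partners of Gpihbp1 in lipid uptake 2 rose and 1 fell: lipoprotein lipase, Lpl, rose 1.15-fold and the fatty acid carrier Cd36 1.23-fold (adjusted p = 0.0287 and 7.52e-04), genes that macrophages also express, and the fatty acid binding protein Fabp4 fell 1.37-fold (adjusted p = 0.0328). Fabp4 lost its call with the clock covariate and when either pair of rats (air replicates 4 and 5, or replicates 3 and 6 of CNC) was left out.

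Among all surface glycoproteins 7 of 9 fell, and 6 did so without overlap. Cd34, a sialomucin of capillary endothelium and of stem cells, held 101 to 110.1 CPM in air and 77.6 to 89.9 in CNC. It fell 1.24-fold (adjusted p = 2.71e-05), with the tightest interval of the 35, -0.39 to -0.23 on the log2 scale. The related Podxl fell 1.16-fold, from 459.6 ± 18.7 to 397 ± 20.6 CPM (adjusted p = 0.00112), and Emcn, a mucin of capillaries and veins, 1.16-fold, from 119 ± 9.03 to 102 ± 7.86 CPM (adjusted p = 0.0101). Clec14a, a lectin-like adhesion receptor, fell 1.19-fold (adjusted p = 0.00288). Its matrix ligand Mmrn2 was at 89.2 to 106 CPM in air and 76.4 to 94.9 in CNC and did not pass (log2 fold change -0.13 ± 0.056 SE, adjusted p = 0.101), but passed with the clock covariate (log2 fold change -0.33, adjusted p = 0.0418). Thbd, the thrombin receptor that switches clotting to anticoagulation, fell 1.16-fold, from 1005 ± 55.9 to 863 ± 78.7 CPM (adjusted p = 0.0102).

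Of the 5 enzymes, secreted proteins and others, 3 fell. Tmem100, a membrane protein induced by BMP9 signalling, ran from 616 to 775 CPM in the air rats (median 685) and 479.6 to 569.8 in the CNC rats (median 540.1). The groups did not overlap, and it fell 1.29-fold (adjusted p = 3.52e-04). Nos3, the endothelial nitric oxide synthase, was at 24.1 to 29.7 CPM in air and 18.95 to 25.8 in CNC, and fell 1.24-fold (adjusted p = 0.0132). Vwf, the clotting protein stored by endothelium of larger vessels and by platelets, fell 1.16-fold, from 1546 ± 150.2 to 1335 ± 86.6 CPM (adjusted p = 0.0187), a call lost without air replicate 2 (adjusted p = 0.0504). Egfl7, a secreted vessel protein, was at 239 to 333 CPM in air and 199 to 289 in CNC, with a log2 fold change of -0.26 ± 0.10 (SE, adjusted p = 0.067). Egfl7 passed when air replicate 5, air replicate 6 or CNC replicate 4 was left out (adjusted p from 0.0224 to 0.0491). It also passed with library size alone, the DESeq2 Wald test and the heart muscle covariate (adjusted p = 0.0469, 0.04 and 0.0283). It did not pass with robust edgeR or the clock covariate (adjusted p = 0.119 and 0.143). Apold1, an early response gene of endothelium, was low, at 4.97 to 6.26 CPM in air and 4.80 to 5.85 in CNC, and did not pass (adjusted p = 0.533).

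To see which members moved differently from the endothelium as a whole, all libraries were rescaled to the geometric mean of 5 pan-endothelial genes (Pecam1, Cdh5, Tie1, Esam and Erg) and all genes were tested again. On this scale 1.12% of all tested genes were called lower and 61% higher, and the median log2 fold change of all genes was 0.25. Of the 30 members outside the reference 3 were called lower and 0 higher, and their median was -0.007. The 3 were Ldb2 (-0.19 ± 0.049 SE, adjusted p = 0.00345), Cldn5 (-0.16 ± 0.057, adjusted p = 0.0224) and Tmem100 (-0.12 ± 0.049, adjusted p = 0.0399). With 61% of genes called higher on this scale, the adjustment over all genes raised p little. Before adjustment the edgeR p was 0.00126, 0.0122 and 0.024 for these 3. No adjustment over the 30 members alone was made. The reference genes themselves lay between -0.12 (Cdh5) and 0.10 (Erg). Cdh5, although part of the reference, was itself called lower on this scale (adjusted p = 0.0173), a smaller adjusted p than those of Cldn5 and Tmem100. Relative to the reference Car4 was at -0.079 (interval -0.19 to 0.036), Kdr at 0.024 (-0.083 to 0.13), Plvap at -0.049 (-0.13 to 0.036) and Gpihbp1 at -0.022 (-0.26 to 0.22). Klf2 was at 0.25 (interval -0.055 to 0.55, adjusted p = 0.141). Ldb2 was called in each fit that left out 1 rat, Cldn5 was lost without air replicate 2, CNC replicate 1 or CNC replicate 5 (adjusted p from 0.0539 to 0.0565), and Tmem100 without air replicate 2 or 6 or CNC replicate 1, 2, 3, 4 or 5 (adjusted p from 0.0511 to 0.115). With Cldn5, Egfl7, Rasip1, Robo4 and Clec14a as the reference, of which Robo4 has few counts, or with the same genes without Robo4, 0 members were called in either direction (for Ldb2, adjusted p = 0.278 and 0.116).

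**Figure D3:**
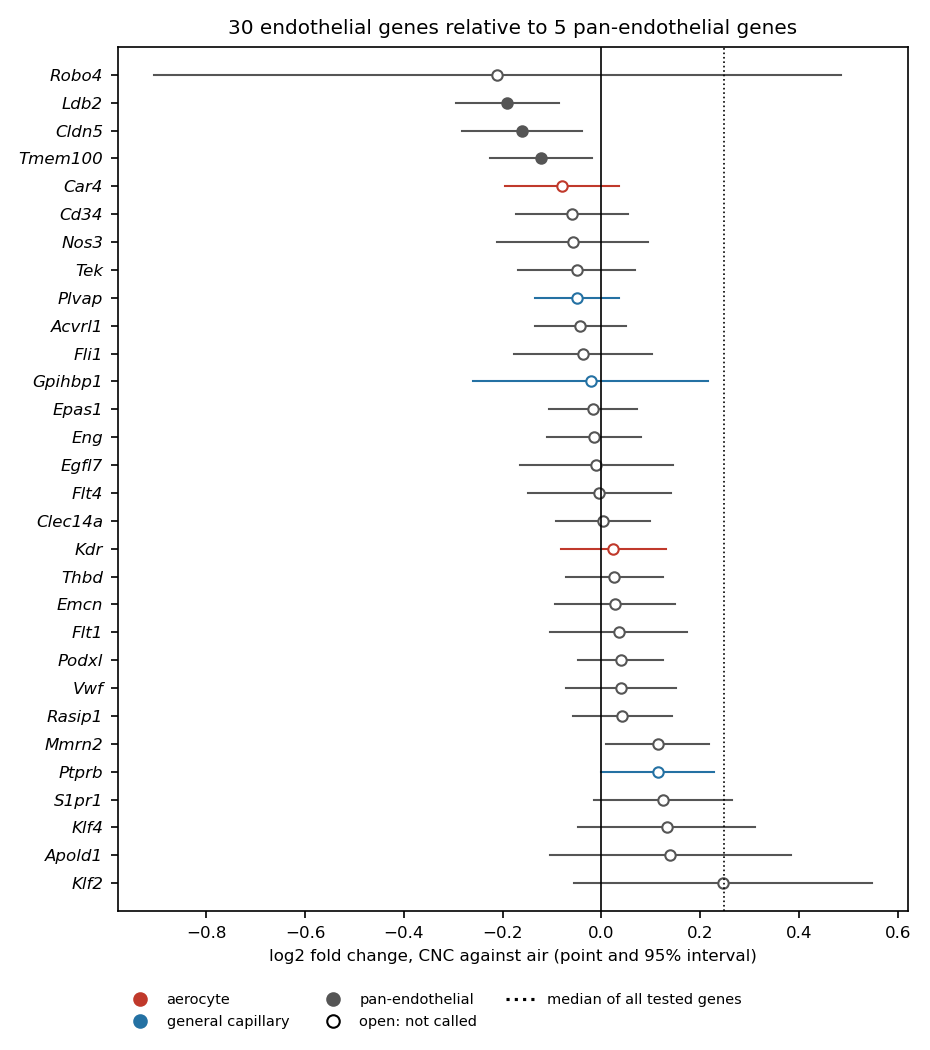
Log2 fold change of the 30 other endothelial genes, CNC against air, after scaling to 5 pan-endothelial genes, with 95% intervals; filled points passed the test and the dotted line at 0.25 is the median of all tested genes. Ldb2, Cldn5 and Tmem100 are the filled points, and most other intervals cross 0 while lying left of the dotted line.

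Other endothelial genes were tested as well. In a list of 25 further tested endothelial-enriched genes 20 fell and 0 rose (median -0.30 on the log2 scale), and 17 showed no overlap between the groups. Arhgef15 fell 1.24-fold, the adrenomedullin receptor Calcrl 1.29-fold, Palmd 1.32-fold and the caveolar protein Cav1, also made by type 1 alveolar cells, 1.29-fold (adjusted p from 5.18e-06 to 4.12e-05). With the clock covariate 9 of the 25 were lower. Genes of each vessel type fell too: 5 of 9 artery genes, 4 of 7 vein genes and 5 of 6 lymphatic genes (median log2 fold changes -0.24, -0.20 and -0.25). None of them was called higher. Every vein gene overlapped between the groups, and Ackr1 and Selp had positive log2 fold changes (0.088 and 0.16, not called). Both were named after their values were seen. In arteries the netrin receptor Unc5b fell 1.25-fold, the ephrin Efnb2 1.17-fold and the gap junction gene Gja4 1.28-fold, besides Sox17. In veins the factor Nr2f2 fell 1.17-fold, the adhesion protein Amigo2 1.38-fold, the noradrenaline transporter Slc6a2 1.52-fold and the ephrin receptor Ephb4 1.15-fold. In lymphatics the hyaluronan receptor Lyve1, which some macrophages also carry, fell 1.20-fold, the master factor Prox1 1.41-fold, Mmrn1 1.17-fold and Reln 1.20-fold. In the fits lacking either of those pairs of rats (air replicates 4 and 5, CNC replicates 3 and 6), 2 of the 6 lymphatic genes passed. With the clock covariate 2 of the artery genes, 1 of the vein genes and 0 of the lymphatic genes were lower.

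**Figure D4:**
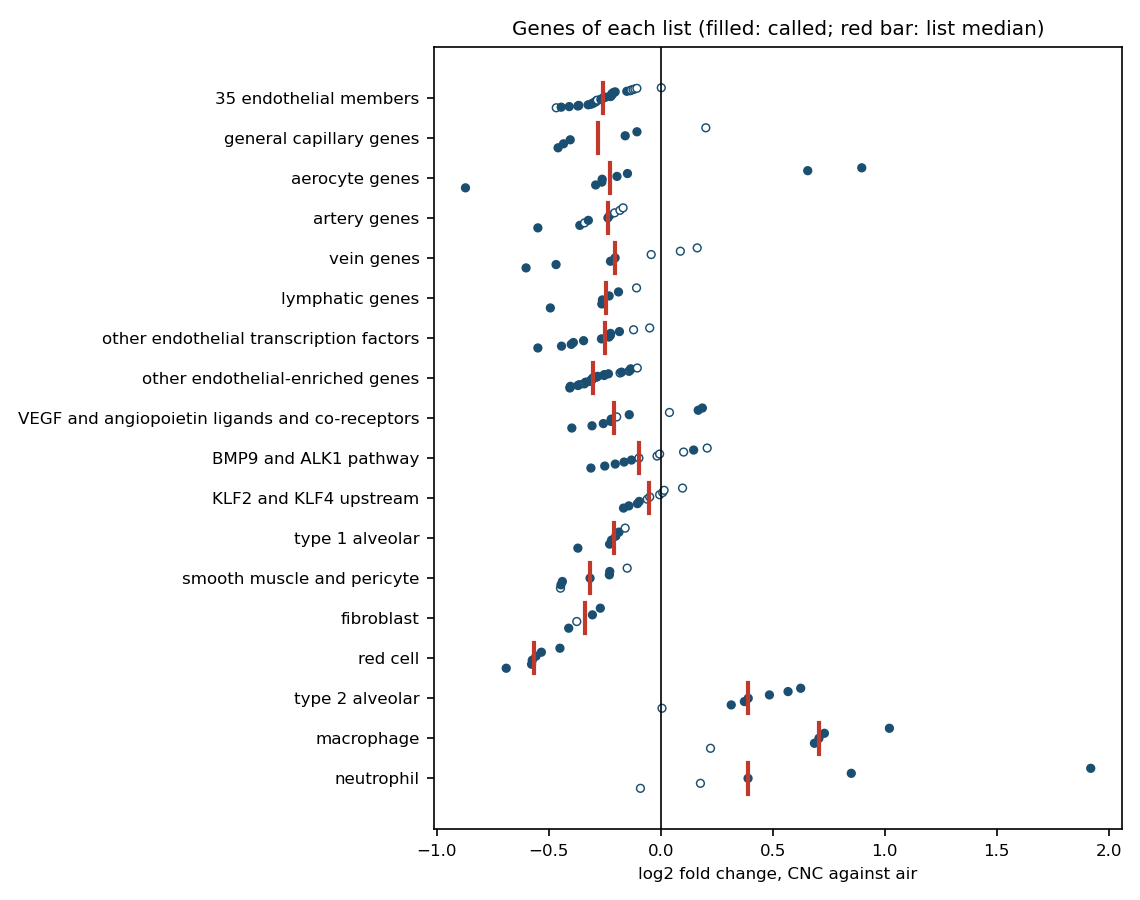
Log2 fold change, CNC against air, of each tested gene in the endothelial lists, the linked pathway lists and the markers of other lung cells; filled points passed the test and a red bar marks each list's median. The endothelial lists centre between -0.30 and -0.20, and the medians of the type 2 alveolar, macrophage and neutrophil markers lie to the right of 0.

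Markers of other cell types moved in the same libraries. The 35 genes summed to 17509 to 20316 CPM in air and 14627 to 16449.6 in CNC, without overlap. Type 1 alveolar markers, the epithelium that shares its basement membrane with the capillaries, summed to 7025 to 8600.2 CPM in air and 6377 to 6619 in CNC, and 5 of 6 fell. Cav1, counted here, is also in the list of endothelial-enriched genes. Of the type 1 markers only Cav1 and Clic5 showed no overlap between the groups. Fibroblast markers (3 of 4 lower) ran from 2008 to 2604 CPM in air and 1718 to 1947 in CNC, and smooth muscle and pericyte markers (5 of 7 lower) from 749.8 to 1039 CPM in air and 656 to 803 in CNC. Red cell genes, all 6 lower, summed to 2974 to 3784 CPM in air and 1996 to 2664 in CNC. Type 2 alveolar markers (6 of 7 higher) summed to 20490.2 to 27169 CPM in air and 27770.4 to 34218 in CNC, macrophage markers (4 of 5 higher) to 13738 to 18565 CPM in air and 22879 to 28547 in CNC and neutrophil markers (3 of 5 higher) to 131 to 224 CPM in air and 316 to 537 in CNC. The macrophage sum, at a mean of 15987 CPM in air and 25681 in CNC, was nearly all Lyz2, at 15636 and 25163. Besides Lyz2, the markers Cd68, Itgax and Msr1 were called higher and Mrc1 was not. Most of the rise of the neutrophil sum, at a mean of 178 CPM in air and 415 in CNC, was S100a9, at 73.2 and 275. Csf3r and Mmp8 were not called. Platelet markers, which bear on Vwf, summed to 21.5 to 33.9 CPM in air and 37.5 to 57.01 in CNC, with 1 of 2 tested higher. The higher one was Pf4, at a mean of 16.7 CPM in air and 35.9 in CNC. The other, Itga2b, was at 12.7 and 11.2 CPM and did not pass, so the sum rose through Pf4 alone. Mesothelial markers overlapped between the groups at 27.3 to 148 CPM in air and 37.96 to 169.5 in CNC. Heart muscle markers, at 11.9 to 408 CPM in air and 12.1 to 120.5 in CNC, T and B cell markers, at 22.2 to 42.3 CPM in air and 26.2 to 36.1 in CNC, and adipocyte markers, at 0.599 to 1.73 CPM in air and 0.101 to 0.796 in CNC, overlapped too, and 0 of their 7, 4 and 1 tested genes passed. The part of these shifts in the endothelial values was not tested.

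Within each group the endothelial genes were often highest or lowest in the same rats. The coefficient of variation of the 35 had a median of 7.91% in air and 7.61% in CNC, with Robo4 the most variable in air (62.4%) and Klf2 in CNC (25.2%). Air replicate 1 was the highest air rat for 17 of the 35 genes and air replicate 2 for 8, while air replicates 5, 4 and 3 were the lowest for 11, 9 and 7. Among the CNC rats replicate 6 was highest for 14, and replicates 1 and 5 were lowest for 15 and 12. The median deviation of a rat from its group's mean over the 35 genes ran from -0.11 (CNC replicate 1) to 0.11 (air replicate 1) on the log2 scale, against the median change of -0.26 between the groups.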

How the data were processed

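RNA of 12 lung pieces was sequenced from strand-specific poly(A) libraries, per the labels' protocols. The authors deposited raw counts per gene symbol, whole numbers with no normalization, in 1 table. Per the submitters' processing notes, the tools were HTSeq 0.11.2, HISAT2 2.1.0, SAMtools 1.8, Cufflinks, Trimmomatic 0.35 and bcl2fastq 2.19, without roles. The build in the table's name is Rnor6, and the annotation and strand setting used for counting are unknown (not given in the sources used here), so overlapping and antisense genes are uncertain. Each column was matched to a rat by the rat number in its name.

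Counts were tested in R 4.3.3 with edgeR 4.0.16: filterByExpr (minimum count 10, minimum total 15), TMM, glmQLFit and glmQLFTest (robust = FALSE), Benjamini-Hochberg adjustment over all 15019 tested genes and a threshold of 0.05. SE is the log2 fold change divided by the square root of F, and intervals are 95%. Log2 levels use a prior count of 2. The common biological coefficient of variation was 8.05%. A second fit used 5 pan-endothelial genes as the scale. Both fits were run on simulated data as a check of the code. How often falls as small as those of the 35 genes are found is not given here. Over 30 pairs of libraries within a group chi-square per degree of freedom lay between 2.6 and 7.93, where repeats of 1 library would give about 1. Each sample is 1 rat, replicate numbers only name a rat, and which rats shared a cage is not used here. The clock score is the mean z score of 9 clock genes (Nr1d1, Dbp, Per3 and others) minus that of 5 in opposite phase (Arntl, Clock and others). Alternatives used DESeq2 1.42.0 and limma 3.58.1. The 35 genes, the other lists and the tests were chosen with earlier results of these data known. All 35 are named whatever their result, and from each further list up to 4 called genes of smallest adjusted p. Beyond that rule stand Vegfb and Nrp2, some marker genes of other cell types, and the genes marked as named after their values were seen. Plots used matplotlib 3.10.9 under Python 3.11.15.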

Additional observations from a re-analysis of the deposited data

Results flagged for a closer look

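In 3 of the 70 sets of 6 rats (35 genes in 2 groups) 1 rat stood apart from the other 5 by Dixon's 95% criterion, and chance alone gives about 1 in 20. Flt1 was 240.1 CPM in CNC replicate 4, below the 262 to 271 of the other CNC rats. Pecam1 was 395 CPM in air replicate 1, above the 310.4 to 339 of the other air rats. Emcn was 136 CPM in air replicate 4, above the 112 to 120.1 of the others.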

How the results depend on the processing

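The count of endothelial genes called lower, 27, was 26 to 29 under the other scalings (DESeq2 size factors, upper quartile, library size alone), filters, tests (DESeq2 Wald, limma-voom, robust edgeR) and the heart muscle covariate, 24 to 28 with 1 rat left out, 18 at a threshold of 0.01, and 8 with the clock covariate. None was called higher under any of them, and none had an unadjusted p below 0.05 in that direction by edgeR. The median log2 fold change stayed between -0.31 and -0.21. For members lower than the pan-endothelial genes (3), the count was 0 with Cldn5, Egfl7, Rasip1, Robo4 and Clec14a as the reference and 0 without Robo4 in that set (added after seeing the data), 1 at a threshold of 0.01, 2 with no filter on low counts, and 1 to 4 with 1 rat left out, where 0 to 2 were higher. Klf2, not called under any of them, changed sign with upper-quartile scaling (-0.0105), library size alone (-0.0226), limma-voom (-0.00857), the heart muscle covariate (-0.0483) and the clock covariate (-0.427), and ran from -0.143 to 0.0879 with 1 rat left out. With the clock covariate the signs of Flt1 (0.0266), Robo4 (0.0328) and Gpihbp1 (0.0837) turned as well. For the lists beyond the 35 genes, the clock covariate and the left-out pairs of rats were alternatives chosen after seeing the data. Robo4 had 4 to 84 reads per library, and what widens its interval was not tested. No paired analysis was possible because the replicate numbers only name a rat and pair no samples.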
